A study of Mus musculus with 16 samples.

Results

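The m6A immunoprecipitation (IP) experiment of this series compared RNA captured by an anti-m6A antibody with the input RNA it was taken from, in control CFU-E cells, the erythroid colony-forming progenitors of mouse bone marrow. It comprised 4 of the 16 libraries of the series, 2 IP and 2 input, and every gene of the count table was considered. Of 13490 genes in the table, 11447 had enough counts to be tested. The remaining libraries were RNA-seq of control and Mettl3-deficient CFU-E and proerythroblasts, of which the 3 control and the 3 Kit-low Mettl3 KO CFU-E libraries are used here.

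The mice were on a C57BL/6 background, male and female, and 10 to 16 weeks old. CFU-E were sorted from bone marrow as lineage-negative cells with Kit and CD71 and without CD16/32, CD41, CD34 and Sca1. The labels of all 4 libraries give control, bone marrow and erythroid progenitor cells, and name no genotype, sex or animal. The libraries labelled Kit-low Mettl3 KO came from a cross that deletes floxed Mettl3 with a Cre driven from the EpoR gene, and these cells were sorted for a low level of Kit, so genotype and gate cannot be told apart in them. Whether replicates came from separate animals is not stated, so p-values measure only the spread between these samples, which may be technical.

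N6-methyladenosine (m6A) is a common internal modification of messenger RNA. A nuclear writer complex built around METTL3 and METTL14 places it on adenosines in a short consensus that includes GGACT, FTO and ALKBH5 can remove it, and reader proteins of the YTH and IGF2BP families bind it and alter the stability, translation or splicing of the transcript. In mRNA, m6A is known to be dense around stop codons and in long exons. In the assay used here, the antibody was applied to total RNA, and captured and input RNA were both copied from an oligo-dT primer and cut to about 300 bp with a Tn5 transposase. Amplification used the Tn5 adaptor and the primer at the 3' end. A value is therefore a gene's share of the reads in one library, scaled between libraries. A gene higher in IP had a larger scaled share in IP than in input. It is not the fraction of molecules that carry m6A.

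The GGACT nearest the stop codon was read from the transcript with the longest coding sequence (GENCODE vM21, GRCm38) for genes at both ends of the comparison, to show that the consensus occurs on either side. Capitals mark the GGACT. Among genes higher in IP, Map3k1 (chr13:111748650-111748678, minus strand, 3' untranslated region), Zbtb38 (chr9:96684708-96684736, minus strand, 3' untranslated region), Ccdc6 (chr10:70189296-70189324, plus strand, 3' untranslated region) and Paip1 (chr13:119455721-119455749, plus strand, coding exon) held these sites.
Map3k1: gtgcctttcacaGGACTggctctggggga
Zbtb38: ctcagagaatgaGGACTgctgtagaaatc
Ccdc6: aatctccagttgGGACTcgtctgatggag
Paip1: acttgaaagagaGGACTtttttccagatt

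Among genes lower in IP, Jund (chr8:70700095-70700123, plus strand, 3' untranslated region), Exosc6 (chr8:111057211-111057239, plus strand, 3' untranslated region), Dexi (chr16:10542492-10542520, minus strand, coding exon) and Arf6 (chr12:69373262-69373290, plus strand, coding exon) held theirs. Mthfd1, a folate enzyme that the study followed up, is shown last (chr12:76317610-76317638, plus strand, coding exon).
Jund: gggcgcatgcgcGGACTagctgcggtggg
Exosc6: acgaggattcgaGGACTgctatcgccctt
Dexi: cttcctgcccgaGGACTtggaccaggcgc
Arf6: acctccggggacGGACTctatgaggggct
Mthfd1: agcacaatgcctGGACTccctacgcggcc

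The motif was common everywhere. At least 1 GGACT on the transcribed strand was found in 91.1% of the 11441 tested genes with an annotated transcript, in 94.0% of the genes higher in IP and in 92.3% of those lower in IP. Per 1000 bases, the counts were 0.984 in the genes higher in IP, 1.12 in those lower in IP and 1.08 in the rest. The reverse complement AGTCC, counted on the same transcripts, occurred 0.931, 0.942 and 0.961 times per 1000 bases in the same order. A match describes the letters of the transcript and is not a mapped m6A site.

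Library totals ran from 19421059 to 37142742 estimated counts. CPM are counts scaled to the total of their library times a normalization factor. Replicates were close: Pearson's r of log2 CPM was 0.984 between the inputs and 0.979 between the IPs, against 0.939 to 0.951 between an IP and an input. The biological coefficient of variation was 21.9%. Among the 2290 genes with the highest level, the median SD of log2 CPM between replicates was 0.142 for input and 0.215 for IP. Among the 2290 with the lowest level, it was 0.355 and 0.360. Over the 4 libraries, the 12 listed CFU-E markers summed to between 13781 and 19828 CPM. Most of this came from Car1 (6684 to 7760 CPM) and Car2 (3698 to 7797 CPM). Klf1 was at 1418 to 2545 CPM, while Kit was at 20.8 to 46.2 CPM and Tfrc at 31.5 to 52.9 CPM. The summed CPM of the tested markers ran from 10.8 to 13.7 for macrophages (6 tested of 13 listed), from 3.76 to 8.49 for granulocytes (3 of 12), from 14.8 to 18.8 for megakaryocytes (5 of 10), from 20.1 to 49.5 for lymphocytes (6 of 13) and from 160 to 219 for late erythroblasts (9 of 12). In such bulk samples, fewer cells of a type and less RNA per cell cannot be told apart. The summed CPM of the CFU-E, granulocyte, megakaryocyte, lymphocyte and late erythroblast markers was lower in both IP libraries than in both inputs. So was the sum over all tested genes after scaling, at 1.02e+06 and 1.09e+06 in input and 8.9e+05 and 1.01e+06 in IP. A lower sum was therefore not confined to the marker lists. The median log2 fold change of IP over input was 0.06 for all genes. It was -0.43 for CFU-E, -0.56 for granulocyte and -0.35 for late erythroblast markers. For megakaryocyte, lymphocyte and macrophage markers it was -0.01, 0.01 and 0.14. Whether the marker drops exceed the general one was not tested. For lymphocytes most of the difference in summed CPM came from Nkg7, at 28.2 and 42.6 CPM in input and 14.3 and 15.7 in IP.

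The IP and input libraries were compared with the quasi-likelihood test of edgeR, fitted on all 11447 genes, and p-values were adjusted by the Benjamini-Hochberg method. At an adjusted p under 0.05, 904 genes were higher in IP (7.90%) and 900 were lower (7.86%). The median log2 fold change over all genes was 0.06, with quartiles of -0.39 and 0.57. Both IP libraries lay above both inputs for 32.2% of genes and below both for 28.7%, and every called gene was among these. The falls ran deeper than the rises. Of the called genes, 314 fell by at least 4-fold and 131 by at least 8-fold, against 146 and 28 that rose by as much. Genes higher in IP had a median of 8.68 CPM in input and 22.2 in IP, beside 11.3 CPM in input for genes not called. Genes lower in IP had a median of 45.8 CPM in input and 13.5 in IP. The balance of calls depended on the scaling: 50.1% of called genes were higher in IP with the trimmed mean of M-values (TMM), 60.6% with library totals alone and 65.8% with the upper quartile, which moved the median of all genes to 0.21 and 0.18. The counts also depended on single libraries. The number of genes higher in IP was 164 without input replicate 1, 571 without input replicate 2, 433 without IP replicate 1 and 1358 without IP replicate 2, and the number lower was 427, 672, 740 and 968. Of the 904 genes higher in IP, 896 kept the direction with each library left out and 132 also stayed past the threshold, and of the 900 lower these were 891 and 407. The kept direction was nearly fixed in advance, since both IP libraries of every called gene lay on the same side of both inputs. Among the genes higher in IP, the median log2 ratio to the mean input was 1.53 for IP replicate 1 and 1.18 for IP replicate 2. Among the lower genes it was -1.47 and -1.64. Class medians below are therefore read against the median of all genes.

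**Figure D1:**
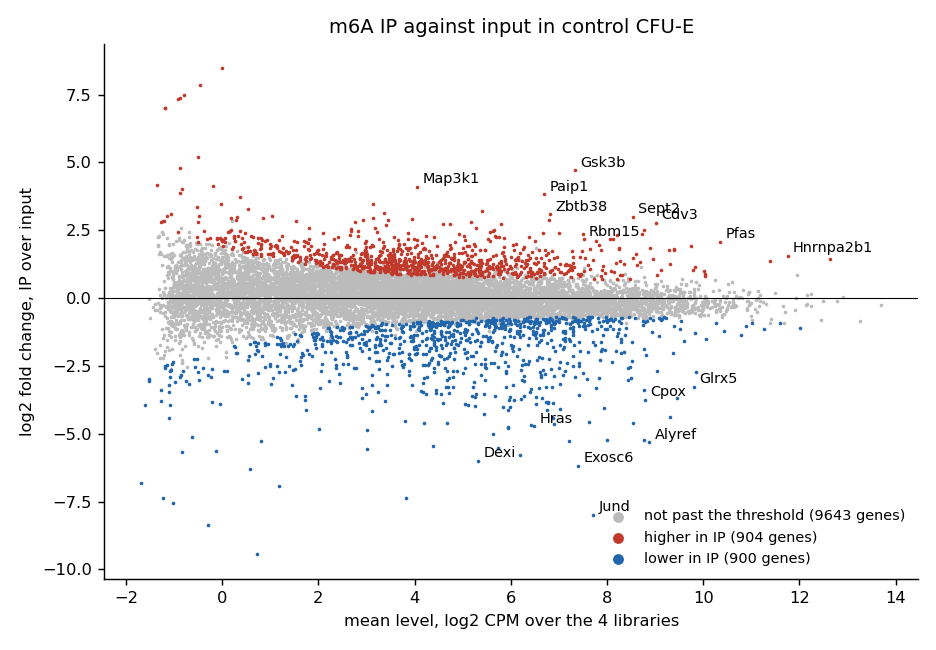
Log2 fold change of IP over input (vertical axis) against the mean level in log2 CPM over the 4 libraries (horizontal axis), 1 point a gene. The 904 genes higher in IP (red) and the 900 lower (blue) lie on both sides of the 9643 genes not past the threshold (grey), and the lower genes reach farther from 0 at levels above 4 log2 CPM.

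The genes with the largest rises at a mean level of at least 4 log2 CPM were Gsk3b, Map3k1, Paip1, Gm42715, Zbtb38, Sept2, Ccdc6, Zfp780b, Cdv3 and Phactr2. Gsk3b encodes a serine/threonine kinase that inhibits glycogen synthase and marks β-catenin for destruction. It was at 9.83 and 13.9 CPM in the inputs and 358 and 262 CPM in the IPs, a log2 fold change of 4.71 ± 0.29 (SE, n = 2 libraries a group, edgeR adjusted p = 5.92e-06). The lower IP library was still far above the higher input. Map3k1, a kinase at the head of the JNK cascade, was at 1.10 and 2.53 CPM in input and 41.6 and 19.7 CPM in IP, 4.11 ± 0.47 on the log2 scale (edgeR adjusted p = 0.000275). Paip1, a partner of the poly(A)-binding protein in translation initiation, went from 9.79 and 17.4 CPM to 206 and 178 CPM, 3.82 ± 0.31 on the log2 scale. The rule that chose the 10 genes required both IP libraries to lie above both inputs, as held for 32.2% of all genes. Zbtb38, a zinc-finger protein that binds methylated DNA, was at 14.1 and 33.4 CPM in input and 225 and 179 CPM in IP. Sept2, a septin of the cytoskeleton, was at 63.8 and 102 CPM in input and 772 and 550 CPM in IP. Cdv3, the most abundant of the 10, was at 116 and 150 CPM in input and 994 and 823 CPM in IP, although its transcript holds no GGACT. Each of the 10 passed the test under every alternative of normalization, filter, tool, fold threshold, block and left-out library in which it was tested. Map3k1 and Gm42715 were not tested under the filter on input TPM.

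The 10 largest falls by the same rule were Jund, Exosc6, Dexi, Rfxap, Dapk3, CAAA01147332.1, Alyref, Taf10, Arf6 and Nsmce4a. Jund encodes a subunit of the AP-1 transcription factor and is a gene of 1 exon. It was at 494 and 344 CPM in the inputs and 1.82 and 1.41 CPM in the IPs, a log2 fold change of -7.99 ± 0.34 (edgeR adjusted p = 1.64e-06), and 52.6% of its exonic bases overlap the annotated antisense gene Gm11175. Exosc6, a subunit of the RNA exosome and also a gene of 1 exon, was at 303 and 364 CPM in input and 4.65 and 4.57 CPM in IP, -6.17 ± 0.27 on the log2 scale. The replicates of each arm lay close together and the arms were far apart. Alyref, an mRNA export adaptor, was at 972 and 865 CPM in input and 17.3 and 29.0 CPM in IP. Nsmce4a, a subunit of the SMC5/6 complex, was at 861 and 849 CPM in input and 22.7 and 22.8 CPM in IP. Arf6, a small GTPase of membrane traffic, was at 478 and 516 CPM in input and 15.7 and 10.6 CPM in IP. Taf10, a subunit of TFIID and SAGA, overlaps the antisense gene Ilk over 45.9% of its exonic bases, and Arf6 overlaps Gm9887 over 13.6%. Whether reads were assigned by strand is not stated. These 10 genes also passed under every alternative in which they were tested, and CAAA01147332.1 was not tested under the filter on input TPM.

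**Figure D2:**
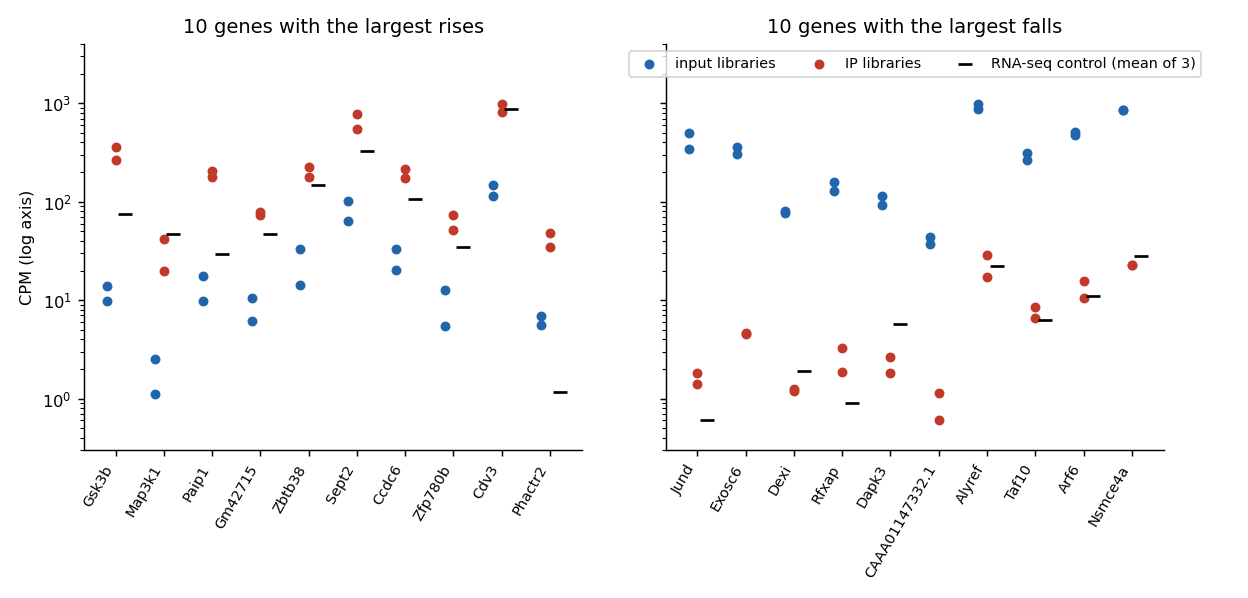
CPM on a log axis for the 10 genes with the largest rises (left) and falls (right). Blue points are the 2 input libraries, red points the 2 IP libraries and black bars the mean of 3 RNA-seq control libraries, which were normalized separately and were not tested for Exosc6 and CAAA01147332.1. The rule that chose the 20 genes required both IP libraries to lie on the same side of both inputs.

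Few ribosomal protein and oxidative phosphorylation genes passed the test in either direction. Of 80 cytosolic ribosomal protein genes tested, 1 was called higher and 0 lower, and the class median log2 fold change was -0.15 against 0.06 for all genes. The class median in log2 CPM was 9.25 and 9.57 in the inputs and 8.98 and 9.64 in the IPs, so the IPs spanned the inputs. The direction rested on IP replicate 1, since the median was 0.05 without it and -0.41 without IP replicate 2. Rpl5 was the called member, at 212 and 234.1 CPM in input and 369 and 366 CPM in IP (log2 fold change 0.72 ± 0.21, edgeR adjusted p = 0.0423), and it missed the threshold without input replicate 1, input replicate 2 or IP replicate 1 and with DESeq2 size factors. Of 78 mitochondrial ribosomal protein genes, 1 was higher and 2 were lower, with a median of -0.12. Of 80 nuclear genes of the respiratory chain and ATP synthase, 1 was higher (Ndufs1, 46.8 and 30.9 CPM in input, 143 and 61.5 CPM in IP, lost without input replicate 2 or IP replicate 1) and 1 was lower, with a median of -0.02 that was 0.10 without input replicate 2 and 0.19 without IP replicate 1. Proteasome subunits had a median of -0.13, with 1 of 49 higher and 2 lower. These lists, together with 20 glycolysis enzymes (median -0.34, 0 higher and 1 lower), held fewer called genes than the backgrounds of 7.90% and 7.86%. Other lists of the translation machinery did not: 6 of 52 initiation factors were higher (11.5%) and 4 lower (7.69%), 3 of 39 ribosome biogenesis genes were higher (7.69%) and 6 lower (15.4%), and 2 of 24 aminoacyl-tRNA synthetases were called in each direction (8.33%).

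The 13 genes encoded by the mitochondrial genome, whose transcripts are made inside the organelle, had a median of -0.50. Of these, 0 were higher and 3 lower (mt-Nd4l, mt-Nd1 and mt-Co3), or 23.1% lower against 7.86% of all genes. mt-Co3, a subunit of cytochrome c oxidase, was at 1341 and 1001 CPM in input and 327 and 455 CPM in IP, a log2 fold change of -1.58 ± 0.26 (edgeR adjusted p = 0.00294, not past the threshold without input replicate 1). The histone list, most of whose genes are replication-dependent with mRNAs that end in a stem-loop in place of a poly(A) tail, had a median of -0.66 over 59 tested genes. None was called higher and 9 were lower (15.3% of the class), and these include H1f0, a replication-independent linker histone with a polyadenylated mRNA, at 139 and 141 CPM in input and 65.4 and 59.4 CPM in IP. Both IP libraries lay below both inputs for 42 of the 59, against 28.7% of all genes. Hist2h3b was at 197 and 52.8 CPM in input and 6.83 and 11.7 CPM in IP, and the near-identical copies of this family may share reads, so single histone genes are uncertain. All exonic bases of Hist2h3b overlap an annotated gene on the other strand.

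Several classes of chromatin, nuclear transport and RNA turnover had medians above that of all genes. Over all genes, the shares called higher and lower were 7.90% and 7.86%. Nucleoporins and transport receptors, which carry cargo through the nuclear pore, had the highest class median, 0.62, with 10 of 48 called higher (20.8%) and 3 lower. Nup98 went from 3.13 and 3.99 CPM in input to 31.1 and 22.2 CPM in IP (2.91 ± 0.31 on the log2 scale, edgeR adjusted p = 0.000154). Tnpo2, Tnpo1 and Kpnb1, import receptors, were also higher. Kpna4, an importin α, went the other way, from 96.8 and 135 CPM in input to 8.08 and 8.94 CPM in IP. The class is therefore not uniform. Histone acetyltransferases and bromodomain genes had a median of 0.58, with 6 of 31 higher (19.4%) and 2 lower (6.45%). Brd1, a scaffold of an acetyltransferase complex, was at 5.91 and 6.13 CPM in input and 22.7 and 21.1 CPM in IP, while Baz1a, of the ACF remodeller, was at 201 and 237 CPM in input and 36.97 and 36.5 CPM in IP. Histone methylation and deacetylation enzymes had a median of 0.23. Of 56 tested, 11 were higher (19.6%), among them Kdm6b (lost without input replicate 1), Kmt2a, Setd2 and Kmt2d. Another 5 were lower (8.93%). Hdac1 and Hdac2, deacetylases of the same repressor complexes, were both lower, Hdac2 from 222 and 118 CPM in input to 30.3 and 21.2 CPM in IP.

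Zinc-finger genes of the Zfp series, most of them DNA-binding repressors, formed the largest class. Of 312 tested, 32 were higher (10.3%) and 12 lower (3.85%), against 7.90% and 7.86% of all genes. A log2 fold change above 0 was found in 218 of the 312, and in 6089 of all 11447 genes. The class median was 0.33. Both IP libraries lay above both inputs for 146 of the 312, against 32.2% of all genes. The class was low in every library, with a median of 1.81 and 1.76 log2 CPM in input and 2.25 and 1.93 in IP. Compared only with genes of the same decile of input level, its median was 0.05.

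Genes that shorten, decap or repress mRNA had a median of 0.46, with 7 of 39 higher (17.9%) and 3 lower (7.69%). Cnot9, a subunit of the CCR4-NOT deadenylase, was at 85.5 and 90.4 CPM in input and 337 and 285 CPM in IP (1.82 ± 0.22 on the log2 scale, edgeR adjusted p = 0.000369). Parn, Xrn1 and Cnot1 were also higher, while Zfp36 and Zfp36l1, which bind AU-rich elements, and Cnot11 were lower. DEAD and DEAH box helicases had a median of 0.40, with 5 of 51 higher (9.80%, near the 7.90% of all genes) and 2 lower. Ubiquitin-specific proteases had a median of 0.52, and 10 of 44 were higher (22.7%), led by Usp37 at 19.9 and 46.7 CPM in input and 124 and 120 CPM in IP. Of 31 ubiquitin-conjugating enzymes, in contrast, 2 were higher (6.45%) and 5 lower (16.1%), with a median of -0.04. Ube2s, which extends ubiquitin chains for the anaphase-promoting complex, fell from 665 and 767 CPM to 30.4 and 28.3 CPM. None of 49 Rab GTPases was higher and 7 were lower (14.3%, against 7.86% of all genes), with a median of -0.19. The difference between these classes was not tested.

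**Figure D3:**
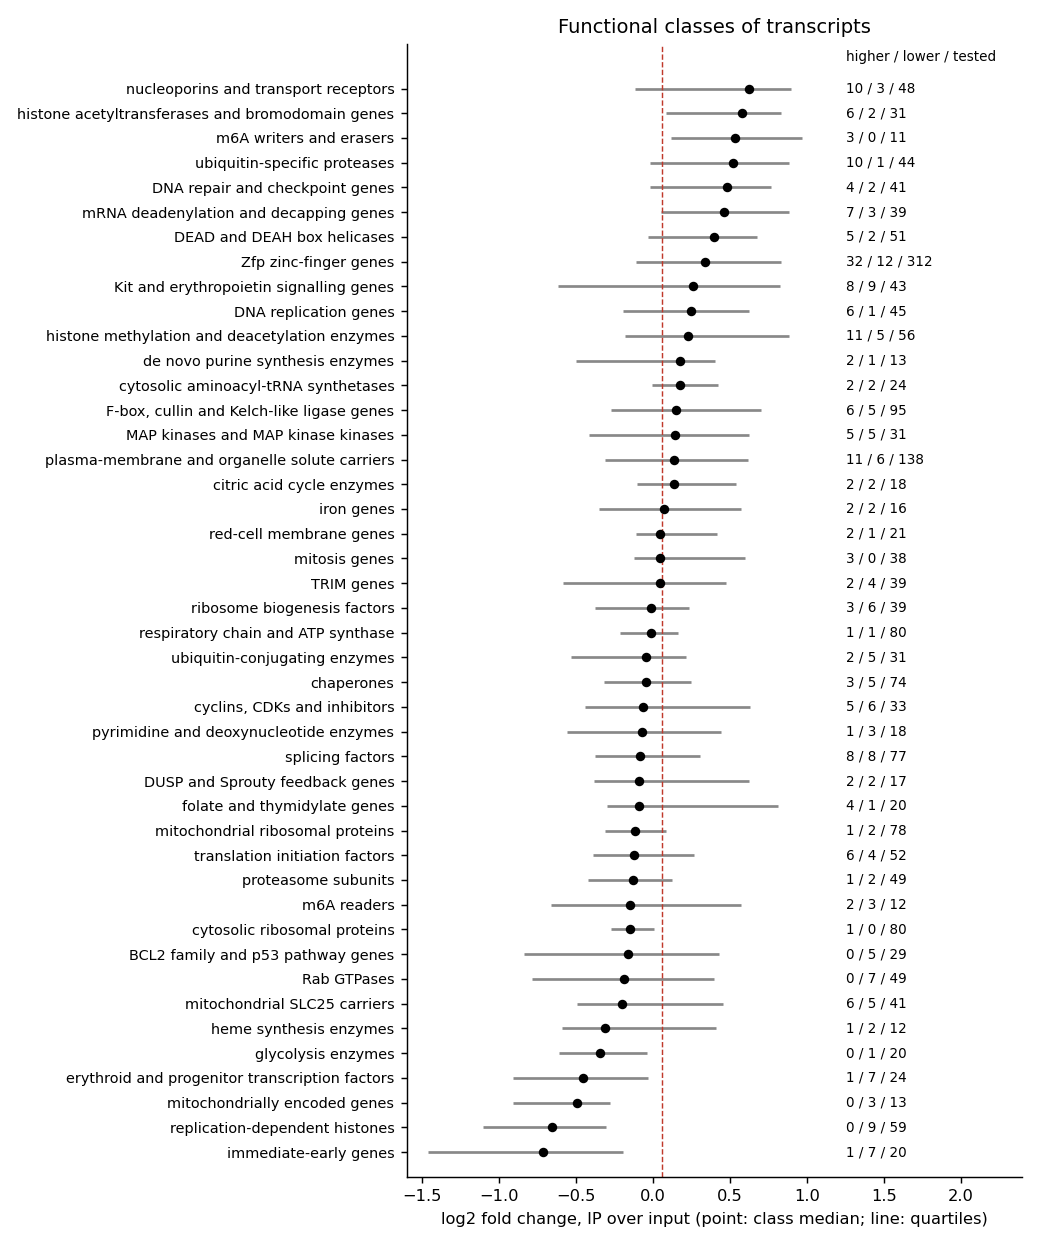
Median log2 fold change of IP over input (points) with quartiles (lines) for each functional class with at least 10 tested genes, and the number of members called higher, called lower and tested. The red dashed line is the median of all 11447 genes, 0.06, and the medians run from -0.72 for immediate-early genes to 0.62 for nucleoporins and transport receptors. The class drawn as replication-dependent histones also holds H1f0.

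In the DNA replication list, 6 of 45 genes were higher (13.3%), among them Cdc7, Mcm4, Orc1 and Mcm6, and 1 was lower (2.22%). The median was 0.24. DNA repair and checkpoint genes had a median of 0.48, with 4 of 41 higher (9.76%), among them Msh6, Chek1 and Bard1, and 2 lower (4.88%), shares near the 7.90% and 7.86% of all genes. Of the 33 cyclins, cyclin-dependent kinases and inhibitors, 5 were higher (15.2%), including Ccne2, Cdk6 and Cdk2, and 6 were lower (18.2%), including Ccne1 and Cdk9. Members of this list thus split in both directions around a median of -0.07.

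Transcription factors of the erythroid and progenitor programme had a class median of -0.46 over 24 genes. Of these, 7 were lower (29.2%, against 7.86% of all genes), 1 was higher and 16 did not pass the test. The lower genes were E2f4, Lmo2, Klf3, Spi1, Nfe2, Lyl1 and Zbtb7a. E2f4, a cell-cycle repressor needed for red-cell production, was at 551 and 370 CPM in input and 110 and 71.8 CPM in IP (log2 fold change -2.34 ± 0.29, edgeR adjusted p = 0.000439). Foxo3, a driver of late erythroid genes and autophagy, was the member called higher, at 27.7 and 42.4 CPM in input and 85.1 and 84.5 CPM in IP, and it missed the threshold without input replicate 1. Gata1 and Klf1, the defining factors of the lineage, had log2 fold changes of -0.59 and -0.45 that did not pass the test (edgeR adjusted p = 0.0898 and 0.265). Immediate-early genes, which are transcribed within minutes of a stimulus, had the lowest class median, -0.72. Of 20 tested, 7 were lower (35%, against 7.86% of all genes), namely Jund, Egr1, Jun, Zfp36, Ier5, Dusp1 and Ier2. Fosb was the only member called higher. Fosb was at 1.98 and 0.956 CPM in input and 7.504 and 2.66 CPM in IP, and missed the threshold when any 1 of 3 libraries was left out.

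Signalling genes downstream of Kit and the erythropoietin receptor divided in both directions. Of 43 tested, 8 were higher (18.6%), among them Sos2, Nras, Lyn and Map2k1. Another 9 were lower (20.9%), among them Hras, Grb2, Socs1 and Map2k2. Over all genes the shares were 7.90% and 7.86%. Nras and Hras, which encode closely related GTPases, were on opposite sides, with log2 fold changes of 1.63 and -4.73. Hras was at 193 and 152 CPM in input and 6.93 and 6.08 CPM in IP (SE 0.27, edgeR adjusted p = 3.62e-06). The paired kinases Map2k1 and Map2k2 also split, at 1.09 and -1.12. Kit itself was at 40.1 and 20.8 CPM in input and 46.2 and 32.9 CPM in IP, groups that overlapped (log2 fold change 0.38 ± 0.33, edgeR adjusted p = 0.46). Of 29 genes of the BCL2 family and p53 pathway, 0 were higher and 5 were lower (17.2%). The lower genes were Phlda3, Bbc3, Ppm1d, Bad and Bcl2.

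Hemoglobin and iron genes were few and mixed. Of 12 tested genes of heme synthesis and its transport, Abcb10 was higher (lost without either input or without IP replicate 2), Cpox and Ppox were lower, and the median was -0.32. Cpox, coproporphyrinogen oxidase, fell from 915 and 735 CPM to 67.4 and 54.5 CPM (log2 fold change -3.76 ± 0.26, edgeR adjusted p = 9.17e-06). Fech, which inserts iron into heme, was at 184 and 112 CPM in input and 326 and 192 CPM in IP and did not pass the test (edgeR adjusted p = 0.100). Glrx5, a glutaredoxin of iron-sulfur cluster assembly, fell from 1535 and 1706 CPM to 166 and 169 CPM, and Fth1, the ferritin heavy chain, was also lower. Aco1, an iron-responsive RNA-binding protein, and Slc25a37, the mitochondrial iron importer, were higher. Globin transcripts were scarce in these progenitors. Hba-a1 was at 43.0 and 45.8 CPM in input and 31.3 and 38.5 CPM in IP, and Hbb-bs at 4.76 and 8.88 CPM in input and 2.33 and 2.21 CPM in IP. Hbb-bs was called lower (edgeR adjusted p = 0.0212) but not without input replicate 2, with library totals alone or against a fold of 1.5, and the α- and β-globin genes are near-identical pairs whose reads may be shared. Alas2 was not analysed here.

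Enzymes of nucleotide and folate metabolism were listed by pathway. Of 20 folate and thymidylate genes, 4 were higher (20%) and 1 lower (5%). Of 13 genes of de novo purine synthesis, 2 were higher (15.4%) and 1 lower (7.69%). Of 18 genes of pyrimidine and deoxynucleotide metabolism, 1 was higher (5.56%) and 3 lower (16.7%). Over all genes the shares were 7.90% and 7.86%. Mthfd1, a trifunctional enzyme that interconverts one-carbon forms of folate, was at 99.1 and 82.7 CPM in input and 311 and 135 CPM in IP, a log2 fold change of 1.30 ± 0.34 (edgeR adjusted p = 0.0299). The IPs of Mthfd1 differed by more than the distance from the lower IP to either input, and the call was lost without input replicate 1, without input replicate 2 or without IP replicate 1. Adss, which makes adenylosuccinate, was at 31.7 and 27.8 CPM in input and 79.6 and 48.5 CPM in IP (1.11 ± 0.28 on the log2 scale, edgeR adjusted p = 0.0237). Pgm2, a phosphopentomutase, was at 32.7 and 24.6 CPM in input and 83.6 and 45.7 CPM in IP (1.18 ± 0.31 on the log2 scale, edgeR adjusted p = 0.0295). Both lost the call under the same left-out libraries as Mthfd1. Pfas, a further purine enzyme, went from 274 and 721 CPM to 2258 and 1964 CPM and was lost only without input replicate 1, while Atic was lower.

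The genes of the m6A machinery were measured in the same libraries. Of 11 writers and erasers, 3 were higher (27.3%, against 7.90% of all genes) and 0 lower, with a median of 0.53. Rbm15, which guides the writer complex to RNA, was at 34.6 and 98.6 CPM in input and 310 and 288 CPM in IP (log2 fold change 2.17 ± 0.40, edgeR adjusted p = 0.00532). Alkbh5, a demethylase, was at 26.5 and 44.0 CPM in input and 114 and 108 CPM in IP (1.66 ± 0.27, edgeR adjusted p = 0.00276), and Wtap, a scaffold of the writer complex, had a log2 fold change of 1.04 ± 0.28 (edgeR adjusted p = 0.0334), a call lost without input replicate 1 or IP replicate 1. The catalytic pair did not pass: Mettl3 was at 42.0 and 36.1 CPM in input and 46.9 and 38.5 CPM in IP, overlapping groups, and Mettl14 was at 13.4 and 8.60 CPM in input and 21.7 and 19.4 CPM in IP (edgeR adjusted p = 0.0600). Of 12 readers, Hnrnpa2b1 and Igf2bp3 were higher and Ythdc2, Fmr1 and Ythdc1 were lower. The calls of Hnrnpa2b1 and Igf2bp3 were lost without input replicate 1, that of Fmr1 without either input or IP replicate 2, and that of Ythdc1 without input replicate 2 or IP replicate 2. Fmr1 and Ythdc1 also missed the threshold with library totals alone. Hnrnpa2b1 was at 1255 and 2225 CPM in input and 4387 and 5936 CPM in IP, while Ythdc2 fell from 12.5 and 16.4 CPM to 4.87 and 4.92 CPM. Ythdf1, Ythdf2 and Ythdf3, the cytoplasmic YTH readers, had log2 fold changes of -0.38, 0.08 and 0.81, none past the threshold.

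Genes called in the 2 directions differed in annotated features that the count test did not use. Median transcript length was 4032 bases for genes higher in IP, 2898 for those not called and 2259 for those lower. The median 3' untranslated region was 1537, 924 and 726 bases in the same order, the median number of exons 13, 9 and 7, and median GC content 46.6%, 49.97% and 54.5%. Across the 11441 genes, which are not independent replicates and share the 4 libraries, Spearman's rho of the log2 fold change was 0.33 with transcript length, 0.20 with the number of exons and -0.33 with GC content. Each IP library taken alone against the mean input gave 0.38 and 0.23 for length and -0.32 and -0.31 for GC content. With GGACT per 1000 bases it was -0.07 and with AGTCC per 1000 bases -0.01. The log2 fold change also went with the input level itself, at -0.34, and that level is the denominator of the fold change.

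By decile of length, the share called higher went from 2.18% in the shortest to 15.3% in the longest, and the share called lower from 6.38% through a peak of 14.5% at 1623 to 2046 bases to 3.41%. By decile of GC content, the share called higher went from 13.4% to 2.54% and the share called lower from 2.36% to 20.02%. Both features moved with the fold change when genes were divided by the other into 3 equal groups. Among the longest transcripts, the median was 0.40 at low and 0.23 at high GC content, and among the shortest it was 0.08 and -0.42. Of 340 genes with 1 exon, 20 were higher (5.88%) and 71 were lower (20.9%).

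**Figure D4:**
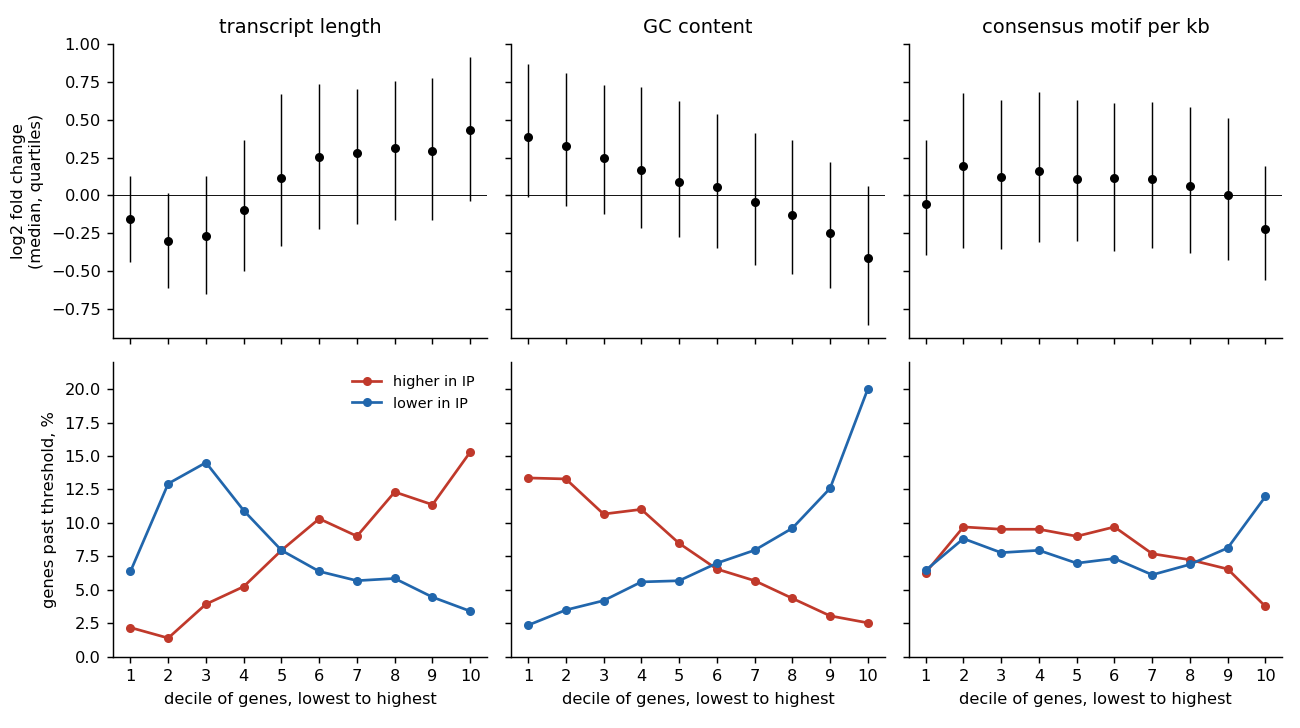
Median log2 fold change with quartiles (top) and the percentage of genes called higher (red) and lower (blue) in IP (bottom) by decile of transcript length, GC content and consensus motif (GGACT) per 1000 bases, about 1144 genes a decile. Length and GC content run in opposite directions, and with motif density the median falls from 0.11 in decile 7 to -0.22 in decile 10, where 3.76% of genes were called higher.

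Length and GC content also moved with the classes. Median transcript length was 847 bases for ribosomal protein genes, 614 for the histone list, 5060 for nucleoporins and transport receptors and 6188 for histone acetyltransferases and bromodomain genes. After the median of genes in the same quintile of length and the same quintile of GC content was subtracted, the class medians were 0.02 for ribosomal proteins, 0.11 for the respiratory chain, 0.24 for nucleoporins, 0.19 for acetyltransferases, 0.25 for ubiquitin-specific proteases and 0.35 for m6A writers and erasers. Those of mRNA shortening and decapping genes and of histone methylation and deacetylation enzymes came to 0.09 and 0.01, and the latter was -0.06 centred on length alone. The medians were -0.46 for the histone list, -0.47 for erythroid transcription factors and -0.58 for immediate-early genes. The part of length and GC content in the called genes was not tested.

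The RNA-seq of control CFU-E, made from other libraries by another protocol and normalized separately, gave a further level for 10773 genes. The ratios here are log2 of CPM plus 0.5. Input correlated with the RNA-seq libraries at Pearson's r of 0.689 to 0.711 and IP at 0.739 to 0.796 across genes. Among genes lower in IP, the median log2 ratio to RNA-seq was 1.38 and 1.27 for the inputs and -0.25 and -0.29 for the IPs. Among genes higher in IP it was -2.23 and -2.13 for the inputs and -0.72 and -1.09 for the IPs. Among genes not called it was -0.62 and -0.72 for the inputs and -0.61 and -0.70 for the IPs. In both called groups the IP libraries were thus the nearer to RNA-seq, for 77.7% of the genes higher in IP and 66.9% of those lower, against 64.7% of genes not called. The distance between IP and input within the called groups is fixed by the call. Jund was at 0.608 ± 0.243 CPM (SD, n = 3) in RNA-seq, near its IP level, Alyref at 22.3 ± 0.247 CPM and Nsmce4a at 28.2 ± 4.76 CPM. Among the 10 rises, Paip1 was at 29.7 ± 2.86 CPM in RNA-seq, nearer to its inputs than to its IPs, and Phactr2 was at 1.18 ± 0.685 CPM, below both of its arms. GC content and length moved with the called groups as given above, and their part in these ratios was not tested.

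**Figure D5:**
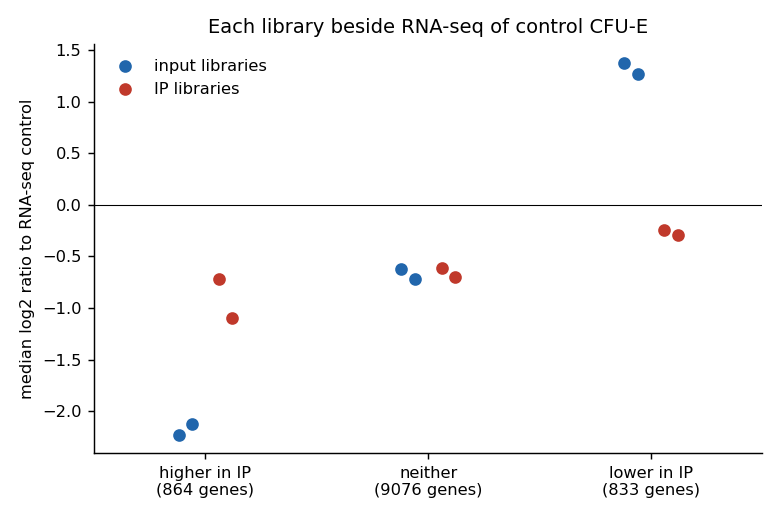
Median log2 ratio of each library to the mean of the RNA-seq control libraries (vertical axis) for genes higher in IP, called in neither direction and lower in IP. Blue points are the 2 inputs and red points the 2 IPs, and the inputs lie farther from 0 than the IPs in both called groups.

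The last comparison set the genes higher in IP beside the change of expression in the libraries labelled Kit-low Mettl3 KO, for which RNA-seq shares no library with the IP and input. Mettl3 itself was at 115, 123 and 130 CPM in the RNA-seq controls and at 117, 127 and 108 CPM in the Kit-low libraries labelled KO, a log2 fold change of -0.07 (edgeR adjusted p = 0.634), so the total count of the gene did not separate the labels. A count over a whole gene does not measure the loss of an exon. In erythroid cells of these mice, the paper reports that Mettl3 mRNA (by qRT-PCR) and protein were absent and that global m6A was lower. Of the genes tested in both tables, 12.4% were up and 10.4% were down in the libraries labelled KO (edgeR adjusted p under 0.05 and at least 1.5-fold). Among 864 genes higher in IP, 89 were up (10.3%) and 88 were down (10.2%), with a median log2 fold change of -0.06. Among 833 genes lower in IP, 144 were up (17.3%) and 83 were down (9.96%), with a median of 0.09. The shares of genes down were close to the background in both groups, and the difference between the groups was not tested. Mthfd1, Adss and Pgm2 were each lower in the libraries labelled KO, with log2 fold changes of -1.22, -1.08 and -1.17, all past the threshold. In the same comparison the median was 2.14 over 9 late erythroblast markers, globins among them, and 0.39 over 12 CFU-E markers. A difference in stage can therefore not be told apart from genotype and Kit gate in these changes.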

How the data were processed

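Control CFU-E were profiled by m6A-seq with 2 IP and 2 input libraries, and values were taken per gene from the deposited table of estimated counts. According to the labels and the methods of the study, the authors captured RNA with an anti-m6A antibody, copied it from an oligo-dT primer with a molecular identifier, sequenced it as 150-bp paired ends, trimmed reads with fastp (0.23.4) and quantified transcripts with kallisto (0.48.0), which they summed to genes with tximport. The processing notes name both mm10 and GRCm39, so no coordinate was taken from the files. Use of molecular identifiers or strand in counting is not given in the sources used here. The RNA-seq table of estimated counts was made by the authors with the same tools. Amplified reads without counted identifiers are not independent molecules, and totals bound counting error only.

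Estimated counts were rounded, filtered with filterByExpr, scaled with TMM and compared, IP over input, by edgeR (4.0.16) quasi-likelihood tests in R (4.3.3), without a block. Genes were called at an adjusted p under 0.05. All 11447 tested genes entered the fit. RNA-seq was compared likewise (3 against 3, called at 1.5-fold or more). CPM are TMM-scaled. A fold change compares library shares after this scaling. Features came from GENCODE vM21 on GRCm38, in which 11441 tested genes matched by symbol. No long noncoding RNA of the list was in the table, and the snoRNA host list held 1 gene. Alternatives were DESeq2 (1.42.0), other scalings and filters, a replicate block, each library left out, and centring by length, input level or, chosen after seeing the data, GC content. Scripts were tested on simulated data. Genes were named as the 10 largest called changes each way at 4 log2 CPM or more with IP libraries on one side of both inputs, the largest called change each way in each class, and all m6A writers, erasers, readers, globins, Mthfd1, Adss, Pgm2, Kit, Alas2 and Fech. Gata1 and Klf1, and further called members given by name, were chosen after their values were seen. The experiment and the gene lists were chosen with earlier results of these data known. Results for some genes are not reported here.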

Additional observations from a re-analysis of the deposited data

How the results depend on the processing

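The number of genes higher in IP was 1451 with upper-quartile scaling and 292 when tested against a fold of 1.5, where the cause is the stricter test, and the number lower was 479 against that fold. With each library left out it ranged from 164 to 1358 for higher genes and from 427 to 968 for lower genes, and a lone library in an arm was assumed to vary like the other arm. With DESeq2, with its size factors, with library totals, without a filter and with the filter on input TPM, the counts stayed within 1.5 times: 817 to 1023 higher and 608 to 1189 lower.

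The labels number replicates 1 and 2 in both arms but do not say that a number marks a shared sample. Deviations of same-numbered libraries from their group means correlated at 0.205. With the replicate block, 1783 genes were higher and 1755 lower in IP, including all 904 and 900 called without it. The cause was not tested.

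The median of Zfp zinc-finger genes was 0.054 centred on input level and 0.095 centred on length and GC content together. The class medians of ribosomal proteins and of the respiratory chain moved by less than the spread between replicates under every alternative. That spread, 0.52 and 0.35, was larger than the medians themselves (-0.15 and -0.02), and both medians changed sign under some alternatives. Relative to the median of all genes, 45 of 45 classes with at least 10 tested genes kept their sign under the 3 other scalings. A change of scaling moves all genes by nearly the same amount, so that count was nearly fixed in advance. With each library left out 32 classes kept their sign, and under all 4 centrings 27 did. Spearman's rho with GC content was -0.32 with the longest transcript. With the top quintile of genes by log2 fold change in place of the called genes, the median change in the libraries labelled KO was -0.0061, against -0.06. Of 108 called genes in the named set, 61 stayed past the threshold in every alternative tested, and no call reversed. That no call reversed was nearly fixed in advance, since the IP and input libraries of every called gene did not overlap. With 2 libraries in each arm, the spread rests on few degrees of freedom, and the SD between replicates was largest for the genes with the lowest level.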
